A study of Mus musculus with 8 samples.

Results

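The transcriptomes of 4 liver tumours were compared with those of 4 samples of non-tumour liver, 1 of each from every mouse of the series, across all 15009 genes with enough counts for a test. All 8 libraries of the series entered the comparison and were chosen by their labels alone: T for tumour, N for the tissue that the labels call relatively normal, named adjacent liver here. Every mouse was an age-matched male that had received the carcinogen diethylnitrosamine (DEN), and all tissue was taken 8 months after it. In 2 mice, numbered 1 and 9, the injected plasmid was the pT3 vector, and in the other 2, numbered 1 and 2, it was pT3 carrying mouse APOBEC3B, which the titles shorten to mA3. The labels give no strain, no age, no count of nodules per mouse and no promoter for the insert. The adjacent liver had met DEN and a plasmid as the tumour had, so it does not stand for untreated liver. Bulk RNA came from pieces of tissue, so fewer cells of a type and less RNA per cell cannot be told apart. The labels identify animals by number only, and the p-values measure the spread between these samples, which may in part be technical.

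DEN becomes an alkylating agent when cytochrome P450 enzymes of hepatocytes act on it, and tumours of hepatocytes grow months later. Hepatocytes normally clear amino acids, drugs and hormones from blood, secrete most plasma proteins, and divide these tasks along the lobule between the portal and the central vein. Growth factor receptors signal in these cells through Ras and the kinase ERK, which switches on immediate early genes together with phosphatases and Sprouty proteins that feed back on the pathway.

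Total counts ran from 12969929 to 22882531 per library. Levels are counts per 1000000 reads (CPM, with TMM factors), not corrected for gene length. Apobec3, the gene closest to the insert's name, stood at 2.71 and 9.96 CPM in the adjacent liver of vector mice 1 and 9 and at 45.0 and 35.1 CPM in that of mA3 mice 1 and 2. In the tumours its levels were 7.85, 15.2, 10.6 and 15.3 CPM in the same order. The mA3 libraries were above the vector libraries in adjacent liver, while the tumours of both plasmids overlapped. Hepatocyte markers were abundant throughout, with a summed level of 63264 to 134714 CPM in adjacent liver and 105553 to 237086 CPM in tumours, a sum that Alb leads. The list median log2 difference was -0.27. Of 16 tested, 1 was called, Trf, which was higher in tumours (log2 difference 1.75, adjusted p = 0.0349, edgeR). By the same test 10 of 16 had an unadjusted p under 0.05.

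Of the 15009 genes, 651 (4.34%) passed the test with the mouse as a block (edgeR quasi-likelihood, Benjamini-Hochberg adjusted p below 0.05 over all genes), 443 (2.95%) higher and 208 (1.39%) lower in tumour. "Rose" and "fell" refer to these calls. At an unadjusted p under 0.05 the same test held 3282 genes (21.9%). Counts of list members at that level are to be read against this share. Irrespective of the test, all 4 tumours lay above all 4 adjacent libraries in 1022 genes (6.81%) and below them in 799 (5.32%). The groups did not overlap in 327 of the 443 rising and 138 of the 208 falling genes. Changes were larger on the rising side: 297 rising genes differed at least 2-fold in every mouse and 77 at least 4-fold, against 109 and 6 of the falling genes. In 131 rising genes every adjacent library was under 1 CPM.

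**Figure D1:**
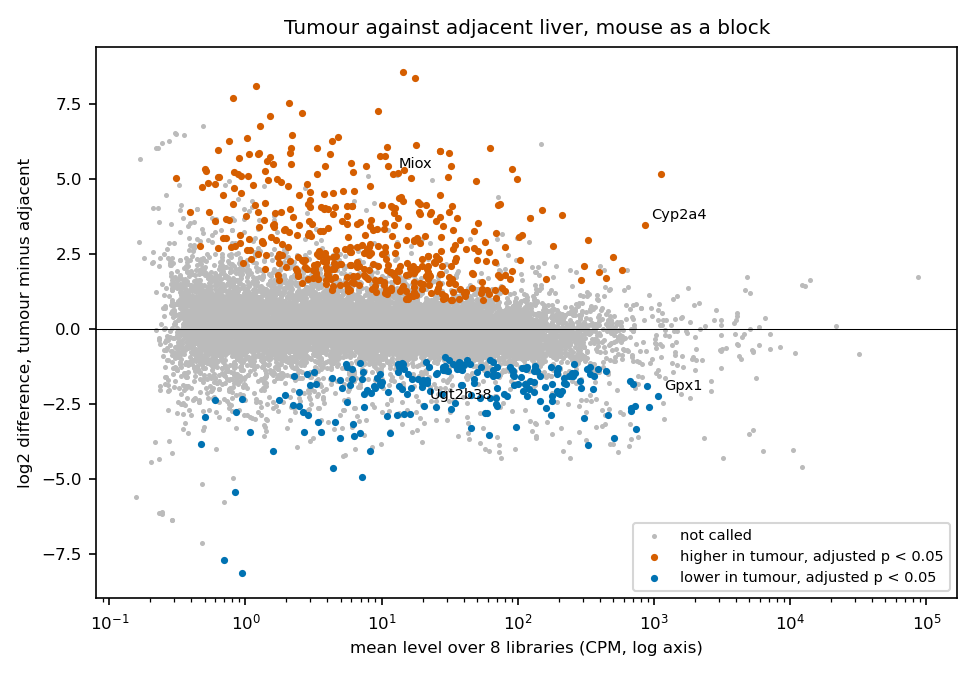
Each point is 1 of 15009 genes, with its mean level over 8 libraries on the log horizontal axis (CPM) and its fitted log2 difference, tumour minus adjacent, on the vertical axis. The 443 rising genes are orange, the 208 falling genes blue and the others grey, and 1 gene from each naming rule is labelled.

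The 4 mice did not contribute equally. The median log2 difference over the rising genes was 1.48 in vector mouse 1, 2.48 in vector mouse 9, 2.62 in mA3 mouse 1 and 2.91 in mA3 mouse 2. Over the falling genes it was -1.24, -1.58, -2.0 and -2.25, and over all genes it lay between -0.01 and 0.05. The smallest of the 4 differences was that of vector mouse 1 in 296 rising and 121 falling genes. Over all 15009 genes, differences of at least 2-fold either way were most frequent in vector mouse 1, with 5104 genes. The counts were 3162, 3911 and 4403 in vector mouse 9, mA3 mouse 1 and mA3 mouse 2. On the first principal component, which held 50.7% of the variance, the tumour of vector mouse 1 was at -31.8, next to the adjacent libraries at -61.2 to -42.5, and the other tumours were at 60.7 to 102. How much non-tumour liver the tumour piece of vector mouse 1 held was not tested. Without vector mouse 1 the number of calls was 3825 and held all 651 genes. Without vector mouse 9, mA3 mouse 1 or mA3 mouse 2 it was 7, 221 or 2, and 7, 211 and 2 of the 651 genes were called the same way. The sign of the difference was kept in 650 or 651 of the 651 genes whichever mouse was left out, which their selection over the same mice favours. With limma on log2(FPKM + 0.1), 94 of 133 called genes examined singly were called. Under it the estimate was over 1.5 times smaller in 13 of the 133, among them Lif (2.92, still called) and, no longer called, Cacna1c (1.87), Itga2 (2.05), Timp1 (2.41), Mmp13 (1.82), Gpnmb (2.15) and Prf1 (1.97). Calls below therefore hold for these 4 mice together, and almost no single call was kept without vector mouse 9 or without mA3 mouse 2.

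The 12 rising genes with the smallest p included a kidney enzyme, ion channels, a laminin chain and cell-surface receptors. They were picked only among genes without overlap between the groups, so their separation was a condition of naming. Genes named for the largest difference in CPM, among them Ugt2b1, Slco1b2 and Aldh1a1, met the same condition. Levels are given in the order vector mouse 1, vector mouse 9, mA3 mouse 1 and mA3 mouse 2 throughout, and positions are those of the deposited table (GRCm38). Miox (chr15:89334398-89337015), which opens the inositol ring, was at 0.10, 1.33, 0.828 and 0.412 CPM in adjacent liver and at 4.18, 27.2, 45.3 and 16.9 CPM in tumours. Every tumour was above every adjacent library, and the log2 difference was 5.16 ± 0.35 (SE, n = 4 mice, adjusted p = 0.00589, edgeR). Rasal1 (chr5:120648812-120679597), a protein that switches Ras off, was at 0.10, 1.25, 0.523 and 0.137 CPM in adjacent liver and 3.61, 63.6, 30.8 and 41.8 CPM in tumours (log2 difference 6.14 ± 0.46, adjusted p = 0.00589). The tumour of vector mouse 1 was the lowest of the 4 and still above all adjacent libraries. Lama5 (chr2:180176373-180225859), a laminin chain of basement membranes, rose from 3.81, 11.8, 13.9 and 4.32 CPM to 37.1, 102, 140.1 and 94.2 CPM (log2 difference 3.53 ± 0.31, adjusted p = 0.00763).

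The channel genes Scn8a, a voltage-gated sodium channel, and Cacna1c, an L-type calcium channel, are known from nerve and heart. Scn8a was at 1.35, 4.31, 4.53 and 3.64 CPM in adjacent liver and 15.5, 40.4, 96.1 and 48.0 CPM in tumours (log2 difference 3.73 ± 0.28). Cacna1c went from at most 0.697 CPM to between 2.29 and 23.3 CPM (log2 difference 4.62 ± 0.36). Mst1r, the receptor kinase for macrophage-stimulating protein, stood at 0.301, 0.784, 0.871 and 0.481 CPM and at 3.21, 10.7, 14.8 and 17.0 CPM (log2 difference 4.10 ± 0.37). In all 3 genes the groups were apart and the lowest tumour was that of vector mouse 1. Klrb1b, a C-type lectin receptor of natural killer cells, reached 6.76, 76.3, 86.3 and 42.8 CPM from at most 1.25 CPM (log2 difference 5.95 ± 0.50). Tlr1, a receptor for bacterial lipoproteins, rose by 3.83 ± 0.35 on the log2 scale, and the remaining genes of the 12 were Wfdc15b (5.78 ± 0.41), Tmem54 (4.78 ± 0.35), Neurl1a (5.03 ± 0.37) and Igha (2.59 ± 0.23). Adjusted p-values of the 12 were 0.00589 to 0.00763.

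**Figure D2:**
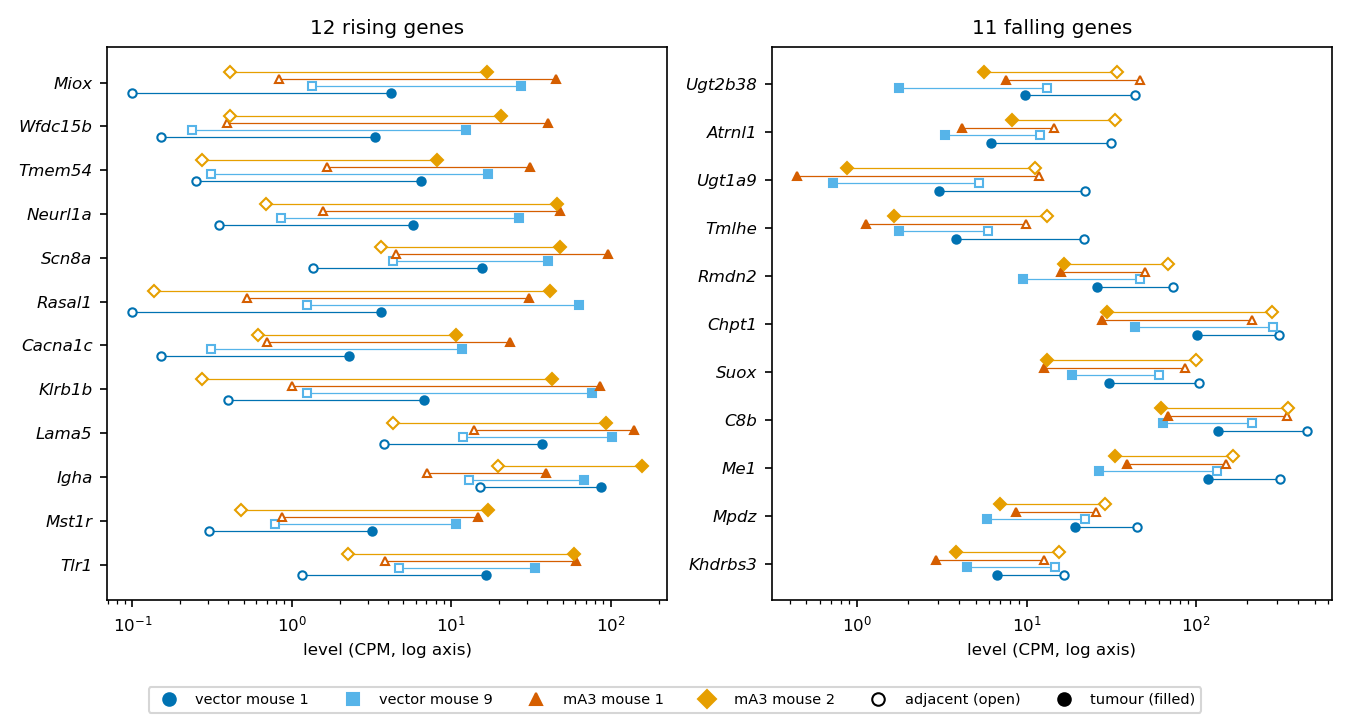
Levels (CPM, log axis) of 12 rising and 11 falling genes among those with the smallest p in each of 8 libraries, open for adjacent liver and filled for tumour, with a line joining the 2 libraries of a mouse. The naming rule admitted only genes without overlap between tumour and adjacent libraries, and in most rising genes the filled circle of vector mouse 1 is the lowest tumour (Miox 4.18 CPM, Rasal1 3.61 CPM).

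Part of the genes switched on by ERK signalling rose. Of 24 tested on a list of feedback and Ets targets, 10 rose, none fell and 23 had an estimate above 0. Their median log2 difference was 1.70, against 0.02 over all genes, and it was 0.81, 2.01, 1.86 and 2.05 in the 4 mice. Dusp5 (chr19:53529109-53542431), a nuclear phosphatase that removes phosphate from ERK, was at 1.30, 1.96, 1.92 and 1.17 CPM in adjacent liver and 8.48, 36.5, 42.0 and 53.7 CPM in tumours. The groups were apart, and the log2 difference was 4.23 ± 0.47 (adjusted p = 0.00965). Egr1 (chr18:34859823-34864984), an immediate early transcription factor, was at 24.1, 26.1, 13.5 and 5.42 CPM and at 81.1, 581, 205 and 259 CPM (log2 difference 3.97 ± 0.65, adjusted p = 0.0268). Lif (chr11:4257557-4272514), a cytokine that signals through gp130, was at 0, 0.157, 0.261 and 0.343 CPM and at 0.688, 6.46, 7.53 and 7.09 CPM (log2 difference 4.86 ± 0.46, adjusted p = 0.00842). Both genes separated the groups, with vector mouse 1 again lowest among the tumours. The Ets factors Etv4 (3.89 ± 0.64) and Etv5 (1.81 ± 0.39), the inhibitors Spry2 (2.21 ± 0.45) and Spred2 (1.34 ± 0.29), and Phlda2, Ier3 and Plat also rose. Dusp6, a cytosolic ERK phosphatase, did not pass (0.80 ± 0.33, adjusted p = 0.221).

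Growth factor ligands and receptor tyrosine kinases moved in part. Of 36 growth factor genes tested, 5 rose and none fell (median log2 difference 0.73), and 23 had an estimate above 0. Irrespective of the test, all tumours lay above all adjacent libraries in 8 of them and below in 4. Their summed level was 1352, 1731, 1455 and 1391 CPM in adjacent liver and 1562, 1006, 764 and 627 CPM in tumours. Areg (chr5:91139599-91148432), which encodes the EGF receptor ligand amphiregulin, had 4 reads over the 4 adjacent libraries, all in mA3 mouse 1, and 365 over the tumours. Its tumour levels were 0.229, 0.331, 13.3 and 3.48 CPM, with the mA3 mice above the vector mice, and its fitted log2 difference was 6.46 ± 0.65 (adjusted p = 0.00842), a size that at so few adjacent reads depends on the model (3.47, adjusted p = 0.0633, with limma on log2(FPKM + 0.1)). Nrg1, a ligand of ErbB3 and ErbB4, was at 0.150, 0.235, 0.218 and 0.618 CPM and at 1.09, 7.29, 17.8 and 8.00 CPM (log2 difference 4.55 ± 0.60, adjusted p = 0.0146). The other rising ligands belong to the TGF-beta family: Inhbb (2.80 ± 0.54), Bmp7 (1.89 ± 0.40) and Bmp4 (1.48 ± 0.31). Among 30 receptor tyrosine kinases the median was -0.07, and the 2 that rose were Mst1r and the collagen receptor Ddr1 (3.10 ± 0.48). Without the mouse as a block, Ier3, Plat and Bmp4 missed the threshold (adjusted p = 0.0972, 0.0562 and 0.0545).

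Promoter windows of 3 of these rising genes are shown, 2 ligands and 1 feedback phosphatase, because each holds the letters of an AP-1 site or a cAMP element core within 250 bases before the start site. Each window runs 5′ to 3′ along the gene to 50 bases past the start (RefSeq, GRCm38.p6). Capitals mark the TATA box motif (as TATAAA), the AP-1 site (as TGANTCA), the cAMP response element core (as TGACG) and the HNF1 motif (as GTTAAT), searched on both strands, so that a match may read as its reverse complement.
Areg, chr5:91139349-91139648, plus strand: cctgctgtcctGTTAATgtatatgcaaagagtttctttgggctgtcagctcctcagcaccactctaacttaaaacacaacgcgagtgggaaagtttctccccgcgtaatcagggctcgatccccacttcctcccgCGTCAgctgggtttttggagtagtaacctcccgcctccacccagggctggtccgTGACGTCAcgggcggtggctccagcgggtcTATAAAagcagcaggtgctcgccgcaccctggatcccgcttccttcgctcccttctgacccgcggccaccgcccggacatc
Lif, chr11:4257318-4257617, plus strand: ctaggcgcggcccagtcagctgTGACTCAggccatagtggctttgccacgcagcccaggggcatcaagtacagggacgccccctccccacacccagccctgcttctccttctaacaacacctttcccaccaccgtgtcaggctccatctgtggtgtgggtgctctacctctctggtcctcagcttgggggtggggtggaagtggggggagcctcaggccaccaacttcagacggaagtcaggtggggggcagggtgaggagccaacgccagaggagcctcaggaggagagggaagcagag
Dusp5, chr19:53528895-53529194, plus strand: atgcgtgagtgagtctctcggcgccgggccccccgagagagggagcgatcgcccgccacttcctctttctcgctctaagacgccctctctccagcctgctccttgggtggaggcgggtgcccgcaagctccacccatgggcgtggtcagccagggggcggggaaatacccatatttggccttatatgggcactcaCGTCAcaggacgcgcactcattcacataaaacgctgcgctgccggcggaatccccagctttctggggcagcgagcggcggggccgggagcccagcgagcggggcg
Areg held a TATA box at position -31 and 3 matches to the cAMP element core, of which the pair at -61 and -58 overlap as a palindrome, and an HNF1 motif at -239. Lif held an AP-1 match at -228, and Dusp5 a cAMP core at -55. A match is a run of letters and not a measured binding site.

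A minority of epithelial surface genes rose, over a wide range of differences. Of 37 keratin, claudin and junction genes, 7 rose and none fell (median log2 difference 0.58). Cdh17 (chr4:11758147-11817895), the cadherin of intestinal epithelium, was at 0.0502, 0.0784, 0.131 and 0.0686 CPM in adjacent liver and 0.172, 3.20, 94.8 and 41.4 CPM in tumours (log2 difference 8.38 ± 0.89, adjusted p = 0.00927). With limma on log2(FPKM + 0.1) the value was 4.17 and missed the threshold (adjusted p = 0.101). All tumours were above the adjacent libraries, but vector mouse 1 differed little and the mA3 mice most. Cdh1, the cadherin of hepatocyte and duct junctions, went from 13, 9.18, 27.1 and 27.1 CPM to 32.7, 117, 225 and 190.0 CPM (log2 difference 2.73 ± 0.41). The collagen-binding integrin Itga2 (4.14 ± 0.62), the laminin-binding Itga3 (2.02 ± 0.41), Cldn14 (1.56 ± 0.25), Marveld2 (1.10 ± 0.23) and Krt20 rose too. Krt20 had 2 reads over the adjacent libraries and 197 over the tumours, so no fold is given. Annexin and S100 genes held 3 rising members of 19, S100a11 (2.11 ± 0.30), Anxa2 (2.58 ± 0.52) and Anxa9 (1.96 ± 0.33), with a list median of -0.06 in the fit that lay between -0.13 and 0.35 over the alternatives and at 0.24, 0.69, 0.24 and 0.11 in single mice. Bile duct markers stood beside these epithelial genes at a summed 111 to 121 CPM in adjacent liver and 188 to 685 CPM in tumours, with 11 of 15 estimates above 0 and none called by edgeR (2 at an unadjusted p under 0.05). Their part in the epithelial result was not tested. The rising actin and tubulin genes, 3 of 44, were Tubb6 (1.88 ± 0.34), Actn1 (1.35 ± 0.28) and Tubb2b (1.30 ± 0.28).

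Intestinal markers were tested for 8 genes of a list of 22, and 4 rose: Cdh17, Spink1, Krt20 and Tff3. Cdh17, Spink1 and Krt20 passed the count filter through their tumour levels alone. The filter thus favours rising genes here, and 4 of 8 is not a share of the whole list. Spink1, a trypsin inhibitor, was at 0.0436 to 0.10 CPM in adjacent liver and at 0.115, 44.9, 6.54 and 23.04 CPM in tumours (log2 difference 7.26 ± 1.0, adjusted p = 0.017, and 0.0736 with limma on log2(FPKM + 0.1)), so vector mouse 1 showed almost no difference. Another 8 genes of the list had no count in any library. Matrix proteases and their inhibitors held 4 rising genes of 35: the tissue plasminogen activator Plat (3.30 ± 0.60), the inhibitor Timp1 (3.64 ± 0.68), the collagenase Mmp13 (2.86 ± 0.56) and the membrane protease Mmp24, with 2 adjacent and 150 tumour reads. Myofibroblast and matrix markers stood beside them at a summed 1196, 882, 1106 and 912 CPM in adjacent liver and 806, 2538, 2965 and 3338 CPM in tumours, with 23 of 25 estimates above 0 (median log2 difference 0.78) and 1 called, Timp1. Their part in the protease result was not tested. Without the block, Plat, Timp1, Mmp13 and Tubb2b missed the threshold (adjusted p = 0.0562, 0.0567, 0.0699 and 0.37), as did Tff3 (adjusted p = 0.0622). Cd63 (chr10:128908919-128912816), a tetraspanin of lysosomes and exosomes, rose from 6.07, 6.74, 8.10 and 4.46 CPM to 26.3, 156, 214 and 147 CPM (log2 difference 4.16 ± 0.55, adjusted p = 0.015). It was the only one of 41 lysosomal genes that passed.

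The 12 falling genes with the smallest p were mostly metabolic or secreted products of hepatocytes. Their naming, too, required that the groups did not overlap. C8b (chr4:104766317-104804548), a chain of the terminal complement complex, was at 447, 212, 343 and 349 CPM in adjacent liver and 135, 64.0, 68.5 and 62.0 CPM in tumours. Every tumour was below every adjacent library, and the log2 difference was -2.07 ± 0.27 (adjusted p = 0.015). Chpt1, which makes phosphatidylcholine, fell from 308, 283, 212 and 281 CPM to 102, 43.7, 27.7 and 30.0 CPM (log2 difference -2.62 ± 0.34, adjusted p = 0.0146). Suox, the mitochondrial sulfite oxidase, fell from 104, 60.4, 85.7 and 99.5 CPM to 30.6, 18.4, 12.6 and 13.1 CPM (log2 difference -2.29 ± 0.30, adjusted p = 0.015). Of the other falling genes, 8 were Ugt2b38 (-2.56 ± 0.23), Atrnl1 (-2.01 ± 0.22), Ugt1a9 (-3.49 ± 0.39), the carnitine synthesis enzyme Tmlhe (-2.59 ± 0.32), Rmdn2 (-1.87 ± 0.23), the malic enzyme Me1 (-1.99 ± 0.27), Mpdz (-1.69 ± 0.23) and Khdrbs3 (-1.80 ± 0.25). Without the block, Ugt2b38, Me1 and Mpdz missed the threshold (adjusted p = 0.0502, 0.0678 and 0.06). Genes of the Ugt1a and Ugt2b families share sequence, and how reads were split between them is not given in the sources used here.

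Part of the conjugation enzymes fell. Of 41 genes of glucuronidation, sulfation and glutathione transfer, 9 fell, 1 rose and 5 had an estimate above 0 (median log2 difference -1.08, by mouse -0.48, -1.28, -0.93 and -1.58). Ugt2b1 (chr5:86916638-86926530), which attaches glucuronic acid to drugs and steroids, was at 869.6, 539, 873 and 834 CPM in adjacent liver and at 289, 59.4, 125 and 57.2 CPM in tumours (log2 difference -2.87 ± 0.43, adjusted p = 0.0214). The groups did not overlap, and the tumour of vector mouse 1 was the highest. Ugt3a1 (-3.53 ± 0.65), Ugt3a2 (-2.23 ± 0.32), Sult1b1 (-1.68 ± 0.30) and Gsta3 (-1.89 ± 0.35, adjusted p = 0.0878 without the block) also fell. The 1 rising gene was Sult2a2, a steroid sulfotransferase with near-identical neighbours, from at most 0.618 CPM to 0.917, 5.58, 4.77 and 18.9 CPM (log2 difference 5.44 ± 0.45, adjusted p = 0.00763).

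Uptake carriers of organic anions and cations fell in part. Of 26 tested, 3 fell and 1 rose (median log2 difference -1.40). Slco1b2 (chr6:141629518-141686646), which brings bile acids, bilirubin and drugs into hepatocytes, was at 1837, 1099, 879.8 and 1149 CPM in adjacent liver and 644, 142, 20.3 and 99.95 CPM in tumours (log2 difference -3.33 ± 0.66, adjusted p = 0.0409). The tumour of mA3 mouse 1 was the lowest and that of vector mouse 1 the highest, still under all adjacent libraries. The carnitine carrier Slc22a5 (-1.52 ± 0.29) fell, and Slc17a4 rose (1.24 ± 0.26).

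Windows of 3 falling genes, from carriers, complement and conjugation, are shown with the same capitals for comparison with those of the rising genes.
Slco1b2, chr6:141629268-141629567, plus strand: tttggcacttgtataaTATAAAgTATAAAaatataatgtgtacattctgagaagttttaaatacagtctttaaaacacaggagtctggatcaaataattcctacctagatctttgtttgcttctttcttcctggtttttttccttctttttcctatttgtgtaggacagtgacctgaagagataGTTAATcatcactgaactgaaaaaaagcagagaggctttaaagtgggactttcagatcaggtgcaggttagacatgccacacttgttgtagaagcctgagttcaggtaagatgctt
C8b, chr4:104766067-104766366, plus strand: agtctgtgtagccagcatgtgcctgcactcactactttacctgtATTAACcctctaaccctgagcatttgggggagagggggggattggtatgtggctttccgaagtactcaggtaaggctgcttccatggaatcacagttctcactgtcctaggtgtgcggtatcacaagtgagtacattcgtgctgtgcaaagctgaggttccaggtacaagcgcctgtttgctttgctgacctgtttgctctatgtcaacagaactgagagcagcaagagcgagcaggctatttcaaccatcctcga
Ugt2b1, chr5:86926454-86926753, minus strand: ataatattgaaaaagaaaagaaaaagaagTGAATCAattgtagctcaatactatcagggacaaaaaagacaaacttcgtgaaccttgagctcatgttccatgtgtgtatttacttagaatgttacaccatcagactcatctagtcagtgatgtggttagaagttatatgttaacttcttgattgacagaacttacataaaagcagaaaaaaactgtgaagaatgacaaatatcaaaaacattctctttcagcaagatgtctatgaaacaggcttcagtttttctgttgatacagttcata
Slco1b2 held an HNF1 motif at -66 and a pair of TATAAA runs at -234 and -227. C8b held an HNF1 motif at -206 and Ugt2b1 a match to TGANTCA at -221. With any base allowed at N, the match in Ugt2b1 reads TGAATCA, against TGACTCA in Lif. The number of CpG dinucleotides was 21, 7 and 28 in the windows of Areg, Lif and Dusp5 and 0, 6 and 1 in those of Slco1b2, C8b and Ugt2b1.

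Promoters of the falling genes differed in composition from those of all genes. Among 8521 tested genes with a single RefSeq window, TATAAA was present in 7.77%, in 10.9% of 220 rising and in 19.8% of 121 falling genes. The Ets core CCGGAA was present in 27.8%, 17.3% and 7.44%, and TGANTCA in 5.19%, 10.9% and 10.7%. The cAMP element core TGACG, held by the printed windows of Areg and Dusp5, was present in 31.4%, 26.8% and 23.1%. The median number of CpG dinucleotides was 20 over all windows, 15 in rising and 11 in falling genes. These shares describe the windows and were not tested.

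**Figure D3:**
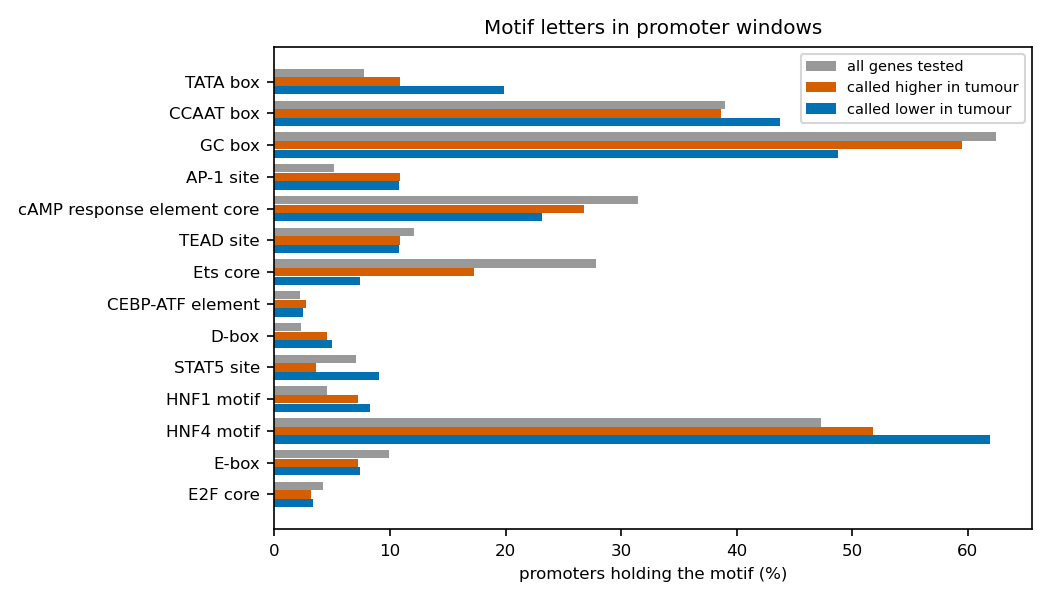
Share of promoter windows (percent) that hold each of 14 motifs on either strand, for all 8521 genes (grey), 220 rising (orange) and 121 falling genes (blue). TATAAA is in 19.8% of the falling genes' windows against 7.77% of all, and the Ets core in 7.44% against 27.8%.

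Amino acid breakdown fell in parts that lead to different products. Of 23 genes for aromatic amino acids, tryptophan and histidine, 5 fell and none rose (median log2 difference -0.77), and of 33 for branched-chain amino acids, lysine and glycine, 6 fell and none rose (-0.85). Aadat, which handles kynurenine and aminoadipate and is on both lists, was at 118, 104, 128 and 103 CPM in adjacent liver and 50.5, 20.3, 8.31 and 17.6 CPM in tumours (log2 difference -2.51 ± 0.44, adjusted p = 0.0324). Kynu, the kynureninase, went from 167, 174, 143 and 161 CPM to 78.1, 74.1, 52.1 and 60.3 CPM (log2 difference -1.30 ± 0.22). Both separated the groups, and Kynu changed by a like amount in every mouse, between -1.09 and -1.46. Ddc (-2.47 ± 0.38), Hgd (-1.51 ± 0.31), Aass (-1.31 ± 0.24), Acadsb (-1.30 ± 0.23) and Dmgdh (-2.07 ± 0.32) fell as well. Gnmt (chr17:46725664-46729168), which uses S-adenosylmethionine to methylate glycine, was at 1474, 916, 751 and 1368 CPM and at 474, 235, 68.1 and 126 CPM (log2 difference -2.63 ± 0.44, adjusted p = 0.0284). Of 25 serine and one-carbon enzymes 2 rose, 1 fell and 10 had an estimate above 0. The list median was -0.08, and -0.38, -0.11, -0.32 and -0.19 in the 4 mice. Phgdh, the first enzyme of serine synthesis, rose from 0.301, 0.314, 0.654 and 0.549 CPM to 1.49, 3.76, 29.8 and 11.2 CPM (log2 difference 4.12 ± 0.55). Psph, the last enzyme of serine synthesis, rose by 1.67 ± 0.30.

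Peroxisomal genes held 5 falling and no rising members of 43 (median log2 difference -0.70), and 12 of them had no overlap on the lower side. They were Hacl1 (-2.24 ± 0.31), which shortens branched fatty acids, Crot (-1.58 ± 0.26), Ehhadh (-1.57 ± 0.25), Pecr (-1.75 ± 0.38) and the bile acid conjugating enzyme Baat (-1.51 ± 0.32). Ehhadh in vector mouse 9 was at 853 CPM in adjacent liver and 356 CPM in tumour, above the adjacent levels of 277, 156 and 179 CPM of the other mice, so the groups overlapped while all 4 mice fell. Without the block its adjusted p was 0.137, and that of Pecr 0.0567.

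Retinoid and alcohol genes split, with 4 falling and 2 rising of 29. Aldh1a1, which makes retinoic acid, was at 1827, 1572, 1204 and 1386 CPM in adjacent liver and 785, 194, 199.8 and 118 CPM in tumours (log2 difference -2.61 ± 0.46, adjusted p = 0.0311). The groups were apart, and the tumour of vector mouse 1 lay nearest to adjacent liver. Rdh16 fell (-2.80 ± 0.47), and Rdh5, which lies next to Cd63 on chromosome 10, rose (1.95 ± 0.22).

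Lipid genes moved in several directions. Of 25 cholesterol synthesis genes 22 had an estimate above 0 (median log2 difference 1.02), but only Lss, which closes the sterol ring, rose (1.94 ± 0.36, adjusted p = 0.0344, and 0.0734 without the block), and the median in vector mouse 1 was -0.21. By edgeR with the block, 14 of the 25 cholesterol genes had an unadjusted p under 0.05. Of 36 lipogenic genes 4 rose and 1 fell, with a median of 0.03. Scd2, a desaturase, was at 23.3, 5.10, 19.8 and 18.1 CPM in adjacent liver and at 63.1, 30.2, 294 and 359 CPM in tumours (log2 difference 3.07 ± 0.53, adjusted p = 0.0296). Every tumour was above every adjacent library. The lipases Pnpla3 (2.33 ± 0.32) and Pnpla5 (3.22 ± 0.43) and the desaturase homologue Fads3 (1.17 ± 0.25) rose, and all 3 missed the threshold without the block (adjusted p = 0.107, 0.085 and 0.0955). Apoc2, the cofactor of lipoprotein lipase, rose from 134, 151, 157 and 160.3 CPM to 392, 1047, 1062 and 891 CPM (log2 difference 2.40 ± 0.33, adjusted p = 0.017). Apoa4 rose by 2.96 ± 0.55, while the hepatic lipase Lipc fell (-1.88 ± 0.39). Of 32 glycolysis genes edgeR called none (7 at an unadjusted p under 0.05, near the 21.9% of all genes), and the median was -0.24.

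**Figure D4:**
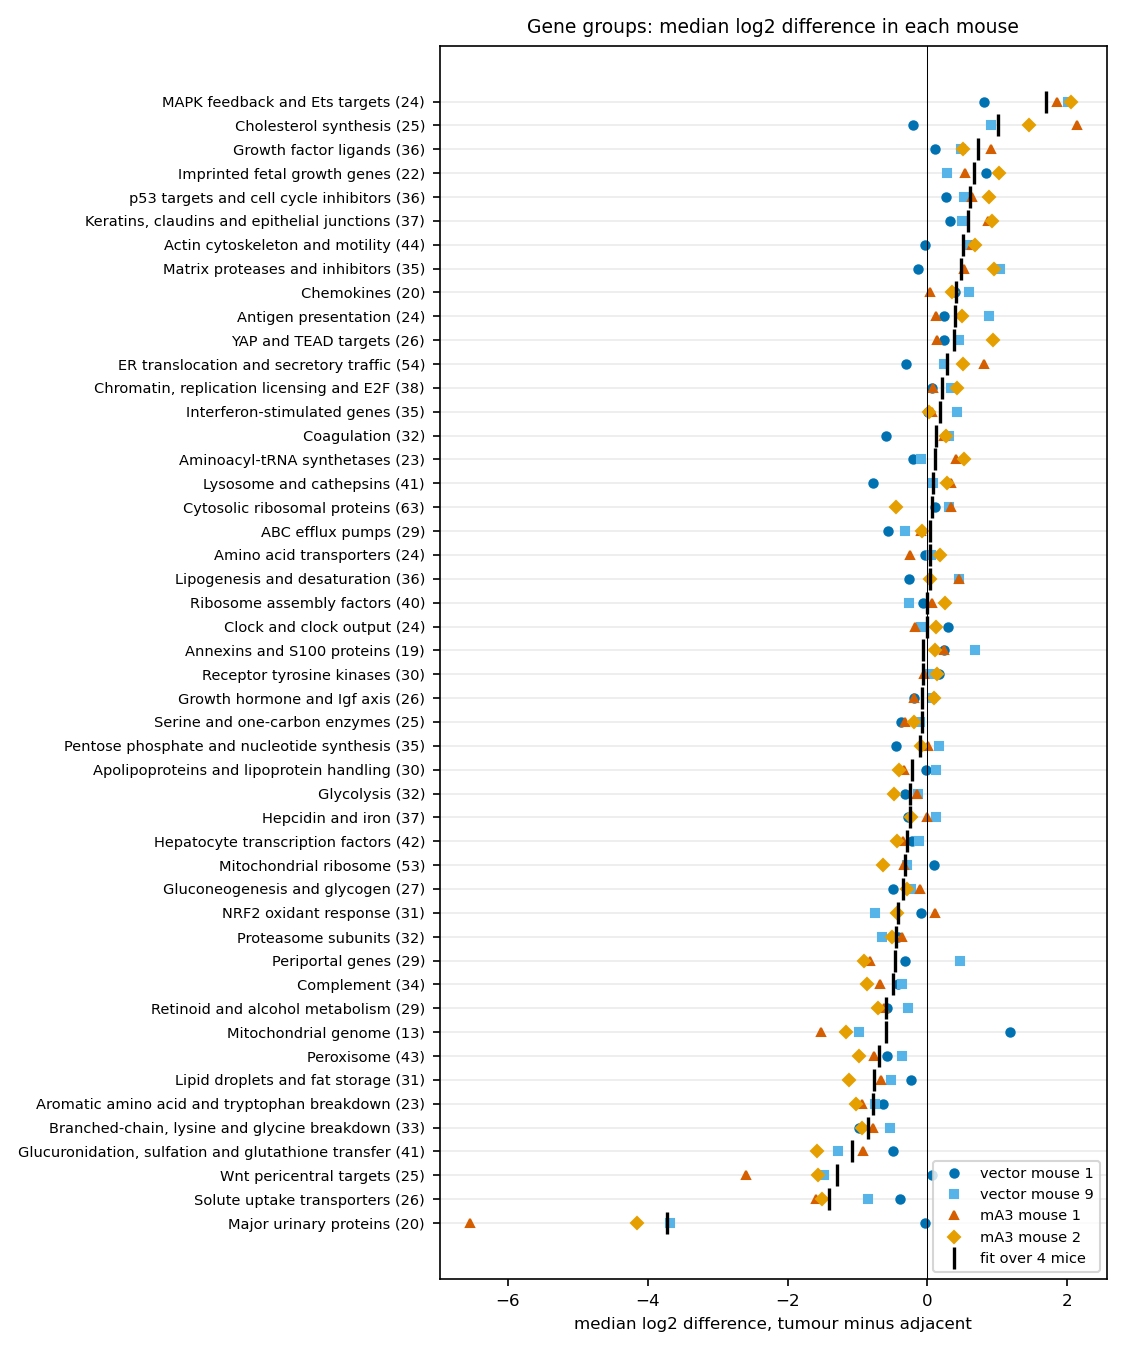
Median log2 difference, tumour minus adjacent, of 48 gene groups in each mouse (coloured points) and in the fit over 4 mice (black bar), with the number of genes tested in brackets. The ERK feedback group is at the top (1.70) and the major urinary proteins at the bottom (-3.72), and vector mouse 1 (dark blue circle) lies near 0 in both the pericentral (0.06) and the urinary protein (-0.03) group.

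Pericentral genes and major urinary proteins had summed levels below adjacent liver in all 4 tumours, least so in vector mouse 1. The pericentral sum was 14807, 17238, 13420 and 11462 CPM in adjacent liver and 9024, 2090, 777 and 1782 CPM in tumours, and the urinary protein sum 50964, 75912, 83505 and 77141 CPM against 41903, 6997, 3272 and 4121 CPM. The 25 pericentral Wnt targets had medians of 0.06, -1.48, -2.59 and -1.57 in the 4 mice (-1.29 in the fit), and 1 fell, the heme synthesis enzyme Cpox (-1.55 ± 0.26). Oat, ornithine aminotransferase of pericentral cells, was at 1088, 1567, 1058 and 781 CPM in adjacent liver and 584, 84.8, 8.86 and 61.6 CPM in tumours. The groups were apart, but with differences from -0.90 in vector mouse 1 to -6.88 in mA3 mouse 1 it did not pass (log2 difference -3.92 ± 0.99, adjusted p = 0.0696). The urinary protein genes, near-identical copies whose reads cannot be assigned with certainty, had median differences of -0.03, -3.68, -6.54 and -4.15. None of these genes had an estimate above 0. By edgeR 15 of the 25 pericentral and 18 of the 20 urinary protein genes had an unadjusted p under 0.05. Mup18, at 450.1, 521, 650.2 and 706 CPM in adjacent liver and 205, 41.8, 13 and 28.1 CPM in tumours, was the 1 of 20 that fell (-3.86 ± 0.79, adjusted p = 0.0441).

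Receptors of growth hormone and prolactin were lower as well. Of 26 genes of the growth hormone and Igf axis, 3 fell and 1 rose. Ghr, the growth hormone receptor, was at 711, 266, 576 and 611 CPM in adjacent liver and 433, 69.4, 70.8 and 127 CPM in tumours (log2 difference -1.99 ± 0.42, adjusted p = 0.0464, and 0.123 without the block). The tumour of vector mouse 1 exceeded the adjacent liver of vector mouse 9, so the groups overlapped. Prlr fell by 1.96 on the log2 scale (SE 0.34), and Igfals, which holds Igf1 in its circulating complex, changed by -2.32 ± 0.48 (adjusted p = 0.0451, and 0.0615 without the block). Igfbp1, a secreted Igf carrier, was at 6.97, 341, 20.3 and 12.1 CPM and at 46.7, 3352, 2449 and 2718 CPM (log2 difference 5.18 ± 1.10, adjusted p = 0.0475, and 0.0805 without the block). It was high in 3 tumours, and the adjacent liver of vector mouse 9 stood above the tumour of vector mouse 1.

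Protein turnover and mitochondrial genes showed small or uneven differences. Of 32 proteasome subunits none was called by edgeR (10 at an unadjusted p under 0.05), yet only 1 had an estimate above 0 and in 14 all tumours were below all adjacent libraries (median log2 difference -0.44). Psma1 was at 113, 108, 95.9 and 114 CPM in adjacent liver and 54.1, 56.1, 60.9 and 61.2 CPM in tumours (log2 difference -0.89 ± 0.22, adjusted p = 0.0646, and 0.0437 without the block). The 63 cytosolic ribosomal proteins had a median of 0.07 and the 53 mitochondrial ones -0.32, with no call in either by edgeR (0 and 6 at an unadjusted p under 0.05). The 13 protein genes of the mitochondrial genome were higher in the tumour of vector mouse 1 (median 1.18) and lower in the other tumours (-0.97, -1.53 and -1.17), and edgeR called none (0 at an unadjusted p under 0.05). Their share of all counts was 7.41, 13.3, 9.96 and 7.74% in adjacent liver and 15.2, 6.98, 3.51 and 3.81% in tumours, and its part in other results was not tested. For chromosomes 1 to 19 and X the median fitted difference lay between -0.11 and 0.09, and the medians of single mice between -0.24 and 0.30, both ends in vector mouse 1. The 10 tested Y genes had a median of 0.21 in the fit and of 0.96, -0.03, -0.25 and 0.19 in the 4 mice, and none was called.

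By absolute level, and among genes whose groups did not overlap, with predicted genes left out, the 6 rising genes with the largest mean difference in CPM were Cyp2a4, Apoc2, Apoa4, Osgin1, Hgfac and Ccbl1. Cyp2a4 (chr7:26307169-26315088), a steroid hydroxylase with a near-identical neighbour, was at 84.0, 138, 172 and 128 CPM in adjacent liver and 571, 1389.7, 2406 and 2004 CPM in tumours (log2 difference 3.47 ± 0.35, adjusted p = 0.00842). Hgfac, the protease that activates hepatocyte growth factor, rose from 185, 155, 184 and 144 CPM to 467, 678, 662 and 704 CPM (1.90 ± 0.29, adjusted p = 0.0226). Osgin1 (1.70 ± 0.34) missed the threshold without the block (adjusted p = 0.0729). Igfbp1, whose groups overlapped, had a larger mean difference (2047 CPM) than Cyp2a4 (1462 CPM). The 6 falling genes under the same conditions were Gpx1, Aldh1a1, Slco1b2, Cml2, Gnmt and Ugt2b1. Gpx1, the main cytosolic glutathione peroxidase, was at 1654, 1421, 1409 and 2318 CPM and at 891, 313, 216 and 261 CPM (-2.25 ± 0.45, adjusted p = 0.0415). The groups were apart in Cyp2a4, Hgfac and Gpx1. Alb, which encodes albumin and was named after its values were seen, was at 83636, 21092, 31679 and 38031 CPM in adjacent liver and 60319, 130107, 171220.2 and 156531 CPM in tumours, and did not pass (1.73 ± 0.73, adjusted p = 0.226).

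Markers of non-hepatocyte cells gave both directions. Of 16 markers of resident macrophages (Kupffer cells) 5 fell, none rose and 1 had an estimate above 0 (median log2 difference -1.25), and their summed level was 791 to 1173 CPM in adjacent liver and 382 to 550 CPM in tumours. Marco, a scavenger receptor, was at 2.86, 23.8, 26.01 and 40.9 CPM and at 1.15, 4.14, 1.67 and 3.85 CPM (-2.86 ± 0.45, adjusted p = 0.0234, and 0.0548 without the block). All 4 mice fell, but the adjacent liver of vector mouse 1 was within the range of the tumours. Timd4 (-2.44 ± 0.45), Folr2 (-1.89 ± 0.32), Vsig4 (-1.80 ± 0.31, adjusted p = 0.0554 without the block) and the iron exporter Slc40a1 (-1.34 ± 0.28) completed the 5. Of 18 markers of recruited macrophages 2 rose, Gpnmb and Apoc2, of which the latter is also a product of hepatocytes. Gpnmb had no count in the tumour of vector mouse 1 and stood at 4.31, 8.36 and 9.41 CPM in the others (4.18 ± 0.68, adjusted p = 0.026, and 0.0726 without the block).

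Rspo3 and Wnt2, secreted signals known to act on pericentral hepatocytes and listed here as sinusoidal endothelium markers, fell in every mouse. Rspo3, an R-spondin, was at 6.32, 6.67, 7.76 and 9.68 CPM in adjacent liver and 1.66, 2.93, 1.87 and 2.94 CPM in tumours (log2 difference -1.72 ± 0.28, adjusted p = 0.0265). Wnt2 was at 4.36, 4.39, 4.23 and 7.83 CPM and at 1.49, 1.71, 1.23 and 1.28 CPM (-1.82 ± 0.34, adjusted p = 0.0341). Neither gene overlapped between the groups, and vector mouse 1 differed by -1.86 in Rspo3 and -1.48 in Wnt2, within the range of the other mice. With Dpp4 (-1.53 ± 0.25) they were the 3 of 20 sinusoidal endothelium markers that fell, and the median of that list was -0.18. Rspo3 was also on the list of quiescent stellate cell markers, where it was the 1 of 18 that fell. On that list 3 estimates were above 0, and the median was -0.69. Capillary endothelium markers held no edgeR call among 21 (3 at an unadjusted p under 0.05).

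Plasma cell products rose in all 4 mice. Of 24 B and plasma cell markers 3 rose: Igha, the IgA heavy chain, from 15.2, 13, 7.06 and 19.6 CPM to 86.6, 67.7, 39.2 and 157 CPM (log2 difference 2.59 ± 0.23), Igkc (1.68 ± 0.22) and Jchain (1.55 ± 0.22), which links IgA chains. Igha separated the groups, a condition of its naming, and vector mouse 1 was among the higher tumours there. Igkc and Jchain missed the threshold without the block (adjusted p = 0.0718 and 0.132). The chemokines Cxcl1 (2.66 ± 0.27) and Cxcl11 (1.65 ± 0.30) were the 2 of 20 that rose, and 4 of 24 antigen presentation genes rose, H2-Q4, H2-Q6, H2-Q7 and their activator Nlrc5, of which the 3 H2-Q genes are close copies. Without the block Nlrc5 and Prf1 missed the threshold (adjusted p = 0.0806 and 0.0857). Among 21 T and natural killer cell markers Prf1 rose (3.12 ± 0.64, adjusted p = 0.0451), with a list median of -0.31 and a summed level of 23.8 to 34.1 CPM in adjacent liver and 20.1 to 24.1 CPM in tumours. On the lists of other tissues, 3 of 14 muscle and fat genes and 2 of 18 pancreas genes had enough counts, and edgeR called none (2 and 0 at an unadjusted p under 0.05). The muscle and fat sum was nearly all Car3, a carbonic anhydrase that male hepatocytes also express, at 5717, 508, 4173 and 3847 CPM in adjacent liver and 3958, 56.2, 18.4 and 272 CPM in tumours (log2 difference -3.65 ± 1.18, adjusted p = 0.127). The groups overlapped, and Car3 was named after its values were seen.

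**Figure D5:**
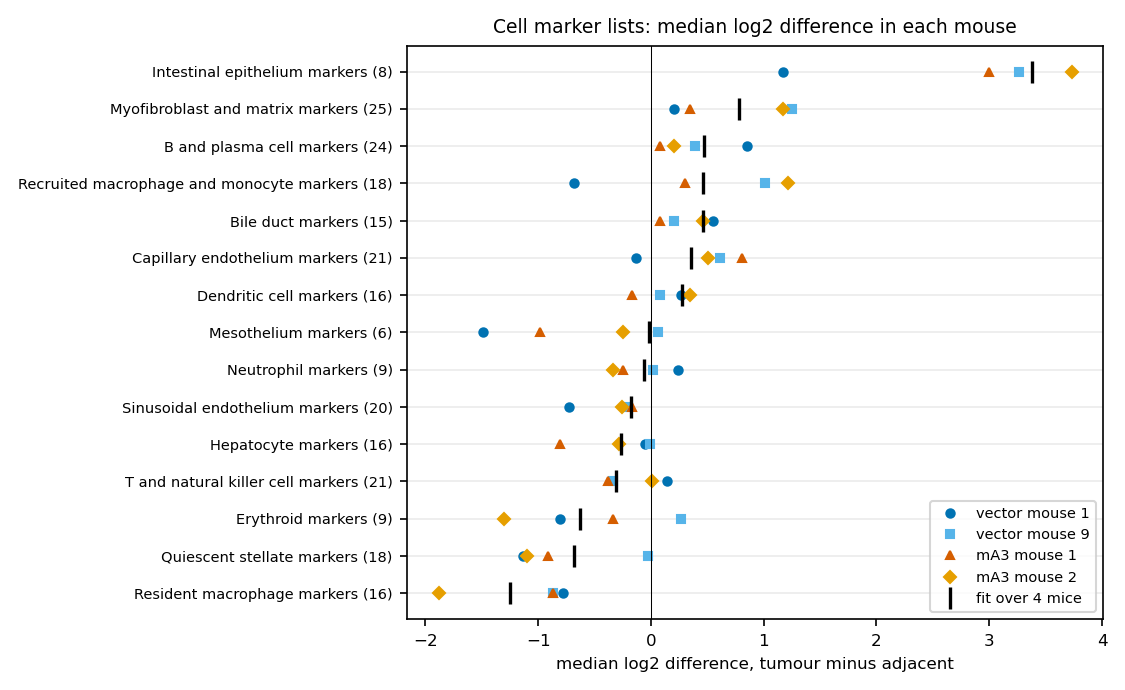
Median log2 difference, tumour minus adjacent, of 15 cell marker lists with at least 5 tested genes, by mouse (coloured points) and in the fit (black bar). Resident macrophage markers are below 0 in all 4 mice (fit -1.25), and recruited macrophage markers are below 0 in vector mouse 1 (-0.68) and above it in the other 3.

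The tumour differences were set side by side for the plasmids. All 443 rising and 208 falling genes had the same sign in the vector and the mA3 mice, which their selection over the same mice favours. No gene passed the test of a tissue by plasmid difference (edgeR quasi-likelihood, 678 of 15009 at an unadjusted p under 0.05, and 82 genes by DESeq2). Among the called genes 47 of 443 and 32 of 208 had an unadjusted p under 0.05. The count rested on single mice: it was 135 without vector mouse 1, 2721 without vector mouse 9, 0 without mA3 mouse 1 and 77 without mA3 mouse 2. With 2 mice per plasmid, plasmid and mouse cannot be told apart. The smaller differences of vector mouse 1 in the called genes enter the vector average.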

How the data were processed

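RNA sequencing of 8 libraries was used. Per the file headers, the authors deposited read counts and FPKM (length-scaled) values for 34745 genes. Aligner, counter and strand handling were not given in the sources used here. The submitters' processing notes name mm8 and Agilent Feature Extraction 10.7, which is array software. Positions matched GRCm38: of 34267 identifiers shared with GENCODE vM21, 81.6% lay within 1 base. For each of the 7555 genes whose counts reached 100 throughout, FPKM equalled the count over library total and 1 gene length within 1%.

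Counts were tested with edgeR 4.0.16 (R 4.3.3, filterByExpr, TMM, quasi-likelihood, mouse as a block, 3 residual degrees of freedom, biological coefficient of variation 37.6%). Log2 differences per mouse used a prior count of 2. The SE was the absolute log2 difference over the square root of F. The code was tested on simulated data. The pairing rests on the shared plasmid and mouse number in the titles. Correlations of tumour and adjacent deviations from the tissue mean were -0.11, 0.47, 0.04 and 0.30 in the 4 mice. Between libraries of different mice they ran from -0.35 to 0.32, so they do not establish the pairing. Alternatives used limma 3.58.1, DESeq2 1.42.0 and other scalings and filters.

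Named genes were the 12 rising and 12 falling called genes with the smallest p, and 6 each way with the largest difference in CPM, with 1 sign in 4 mice, no overlap and a mean of at least 5 CPM, plus up to 4 members with the smallest p per list. Further list members, and Alb, Oat, Dusp6 and genes whose promoters are printed, were named after their values were seen. The members and the 65 gene lists were chosen with earlier results of these data known. A few genes that these rules select are not reported here.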

Additional observations from a re-analysis of the deposited data

Results flagged for a closer look

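For 144 genes examined singly and the first principal component, 290 sets of 4 libraries in all, the gap between the highest or lowest library and its nearest neighbour was taken as a share of the set's whole range, on the log2 CPM scale for genes. In 23 sets this ratio exceeded Dixon's 95% critical value. Chance alone gives about 1 in 20 such sets. The ratio follows each gene. The adjacent liver of mA3 mouse 1 stood apart in Tmem54 (0.8983), Areg (1) and Mmp24 (1). The tumour of vector mouse 1 stood apart in Hgfac (0.8506), C8b (0.871), Lif (0.9337), Tnfrsf10b (0.876), Mmp24 (0.8302), Slc17a4 (0.8887), Ces1g (0.8615), Igfals (0.8904), Igfbp1 (0.9265), Gpnmb (0.8292), Lcn2 (0.8933) and Alas2 (0.9126). The adjacent liver of vector mouse 9 stood apart in Ugt2b1 (0.9054), Btg2 (0.8357), C9 (0.8438), Scd2 (0.8332) and Igfals (0.8812). The tumour of vector mouse 9 stood apart in Pnpla3 (0.8415). The adjacent liver of mA3 mouse 2 stood apart in Wnt2 (0.9379). The adjacent liver of vector mouse 1 stood apart in Krt20 (1). In Areg, Mmp24 and Krt20 the ratio of 1 arises because the other 3 adjacent libraries were at 0. No cause was tested.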

How the results depend on the processing

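Without the replicate block 696 genes were called, 442 higher and 254 lower, and 286 of the 443 rising and 123 of the 208 falling genes were among them. DESeq2 called 2088 genes (1131 higher, 957 lower), no filter on low counts 1374 (810 and 564), and limma on log2(FPKM + 0.1) 428 (286 higher). Limma on log2(FPKM + 1) called 0 of 15009, with 3275 at an unadjusted p under 0.05. With limma-voom 372 genes were lower. Leaving out 1 mouse at a time gave 2 to 3825 calls, 2 to 2035 higher and 0 to 1790 lower. For the tissue by plasmid difference DESeq2 gave 82 calls, and leaving out 1 mouse gave 0 to 2721. The cause of these changes was not tested. Of 133 called genes examined singly, 96 were called without the block. None of the 133 changed sign under the other scalings. Apobec3, which was not called (-0.32), ran from -0.94 to 0.30 when 1 mouse was left out and was above 0 without mA3 replicate 1 (0.30) and without mA3 replicate 2 (0.05). The median difference of the mitochondrial genome went from -0.60 to -1.19 without vector replicate 1. The number of mice, 4, limits the precision.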
